A study of Mus musculus with 14 samples.

Results

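The nuclear genes of mitochondrial oxidative phosphorylation were followed in lung epithelial cells and whole lung of Nkx2-1 mutant mice. Members were chosen by gene name alone, as the Nduf, Sdh, Uqcr, Uqcc, Cyc1, Cox4 to Cox8 and Atp5 genes, with pseudogenes and joined names left out. This gave 96 genes, of 32609 loci in the larger of the deposited tables. Complex I had 46 of them, complex II 4, complex III 11, complex IV 18 and complex V 17. By role, 76 encode subunits found in most tissues, 8 encode subunit isoforms restricted to certain tissues, 10 encode assembly factors, and 2 carry an Atp5 name without being counted here as subunits. The AT1 and lung table named 95 of the genes among 23793 loci. The AT2 table named 76, of which 75 were in both, and 20 genes, among them Atp5a1, Sdhb, Ndufv1, Cox8a and Ndufa4, could not be followed in AT2 cells.

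Oxidative phosphorylation makes most of the ATP of a resting cell. Complexes I and II pass electrons from NADH and succinate to ubiquinone, complex III passes them on to cytochrome c, complex IV reduces oxygen to water, and complex V, the ATP synthase, uses the proton gradient that complexes I, III and IV build. All of complex II and most subunits of the other complexes are encoded in the nucleus, while mitochondrial DNA encodes core subunits of complexes I, III and IV and parts of complex V, so each of these needs both genomes. In the alveolus, surfactant-making alveolar type 2 (AT2) cells are rich in mitochondria, and alveolar type 1 (AT1) cells are thin and cover most of the gas-exchange surface.

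Nkx2-1 is a homeodomain factor needed for lung epithelial identity. Libraries of mutants and of their controls were compared in AT1 cells sorted by flow cytometry at postnatal day 5 (P5; 3 mutant and 3 control libraries), AT2 cells at P8, P8 and P9 in each group (3 mutant and 3 control libraries) and whole lung lobes at P14 (1 mutant and 1 control library). The labels join Nkx2-1 with Aqp5 for the AT1 cells and the lung, and with Sftpc for the AT2 cells. Aqp5 is transcribed in AT1 cells and Sftpc in AT2 cells. The alleles, the driver, the genotype of the controls, the isolation of the AT2 cells and whether each library came from 1 animal are not stated by the labels, so p-values measure the spread between these libraries, which may be partly technical. AT1 and AT2 values came from separately normalised tables, and changes were taken within a table.

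Nkx2-1 itself was lower in every mutant library. FPKM is the number of sequenced fragments of a gene, corrected for transcript length and library size. Nkx2-1 measured 22.8, 55.8 and 68.2 FPKM in AT1 mutants A, B and C and 262, 281 and 239.8 FPKM in AT1 controls A, B and C (log2 -2.53 ± 0.36 SE; limma adjusted p = 0.00639), and it measured 74.4, 59.0 and 73.4 FPKM in AT2 mutants and 247, 289 and 353 FPKM in AT2 controls (log2 -2.08 ± 0.16; adjusted p = 7.31e-05). Summed FPKM lay between 458291 and 983397 per library and 11102 to 13030 loci reached 1 FPKM, while depth in reads is unknown. The 10 AT1 markers summed to 1858 to 4448 FPKM in AT1 mutants and 9699 to 11069 FPKM in AT1 controls, and 10 AT2 markers were also present in those libraries, at 2827 to 11467 FPKM in mutants and 7990 to 18323 FPKM in controls. In AT2 libraries the AT2 markers summed to 2020 to 3892 FPKM in mutants and 85196 to 113925 FPKM in controls. Genes of the cell cycle rose in both cell types, 8 of 8 tested in AT1 cells (median log2 1.81) and 7 of 7 in AT2 cells (median log2 2.19), and their part in the changes below was not tested.

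In AT1 cells, nuclear genes of all 5 oxidative phosphorylation complexes rose in mutants. Of 91 members that reached 1 FPKM in at least 3 libraries, 38 rose and none fell at a limma adjusted p under 0.05. Of all 12612 loci tested, 11.6% rose and 6.22% fell at that adjusted threshold. At an unadjusted limma p under 0.05, 60 members were higher and 0 lower. The share of all loci at the unadjusted threshold was not counted. The median log2 change of the 91 members was 0.50, with quartiles at 0.31 and 0.65, against 0.00 over all loci, and 87 members lay above 0. In 68 of the 91 members every mutant library was above every control library, a pattern seen in 23.6% of all loci, and in the other 23 the groups overlapped. Summed over all members, FPKM was 14611, 12763 and 11695 in mutants and 8156, 9329 and 9142 in controls. The 4 members that missed the filter were Cox6a2, Cox7b2, Cox8b and Cox8c.

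**Figure D1:**
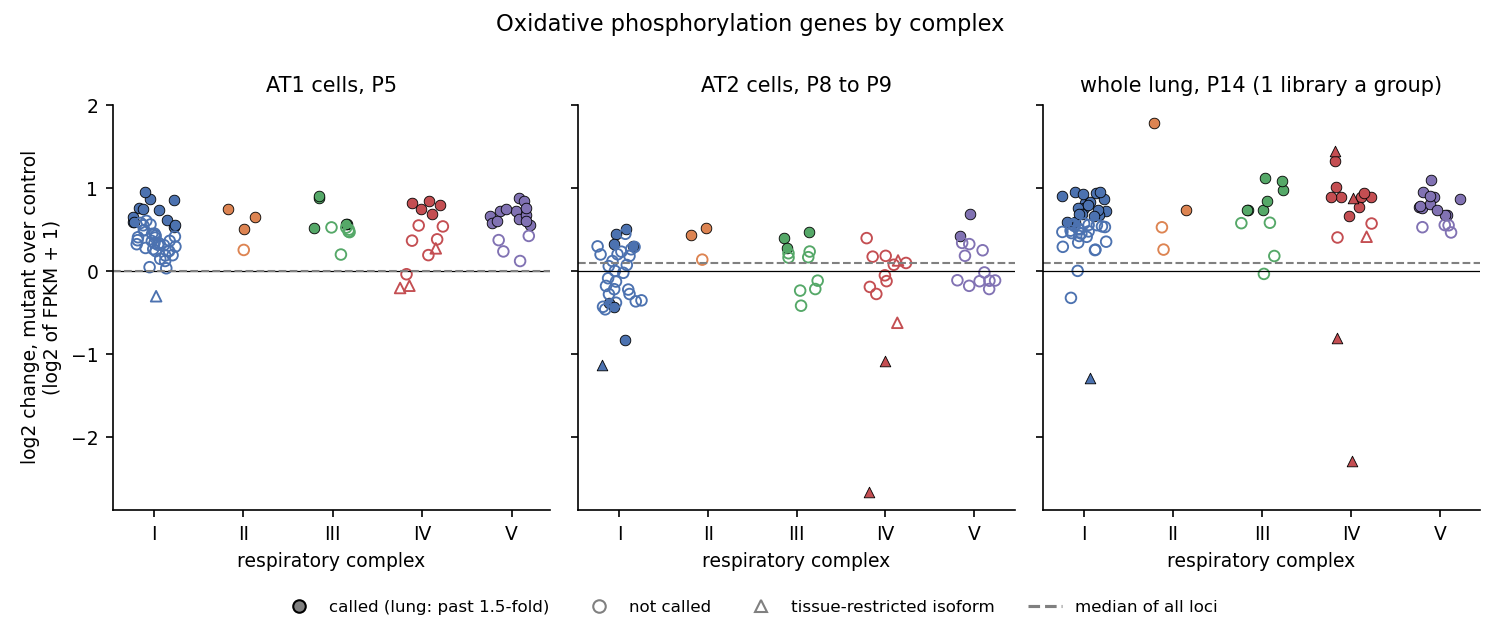
Log2 change (mutant minus control) of each member, by complex (horizontal axis), in AT1 cells, AT2 cells and whole lung; filled points passed the test (lung: 1.5-fold, untested), triangles are tissue-restricted isoforms and the dashed line is the median of all loci. In AT1 cells the 38 filled points all lie above 0, and complex V stands at a median of 0.63; in AT2 cells points lie on both sides of 0, and the isoforms reach -2.65.

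Complex V, the ATP synthase, had the highest share of called members, with 13 of 17 higher (median log2 0.63) and 13 of its 15 subunits. Atp5a1 and Atp5b encode the alpha and beta subunits of the catalytic head. Atp5a1 measured 353, 289 and 274 FPKM in mutants and 182, 180.3 and 189.9 FPKM in controls (log2 0.72 ± 0.15 SE; adjusted p = 0.0213). Atp5b measured 618, 536 and 501 FPKM in mutants and 344, 336 and 359 FPKM in controls (0.67 ± 0.16; adjusted p = 0.0283). In neither gene did the groups overlap, and mutant A was the highest library. The Atp5b call was lost in each of the 6 fits that left out 1 library, with log2 changes of 0.58 to 0.73 and adjusted p of at most 0.0800. The Atp5a1 call was lost without mutant A, mutant B or control C (adjusted p of at most 0.0650).

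Stalk and membrane subunits of the ATP synthase rose as well. Atp5o, the subunit that joins head and stator, was higher at 246, 231 and 199 FPKM in mutants against 117, 144 and 141 FPKM in controls (log2 0.75, adjusted p = 0.0191; lost without mutant A or mutant B, at most 0.0708). Atp5g1, Atp5g2 and Atp5g3 are separate genes whose mature product is the same protein, subunit c of the membrane rotor. Atp5g1 measured 122, 106 and 99.8 FPKM in mutants and 53.5, 59.6 and 62.8 FPKM in controls (0.89 ± 0.14; adjusted p = 0.00922), and Atp5g3 measured 423, 365 and 346 FPKM in mutants and 204, 208 and 218 FPKM in controls (0.84 ± 0.15; adjusted p = 0.0122). Both kept their call in all 6 fits with 1 library left out. Atp5g2 measured 365, 276 and 294 FPKM in mutants and 159.9, 199 and 205 FPKM in controls (0.72 ± 0.18; adjusted p = 0.0300), and its call was lost in 5 of those fits, all but the one without control B (at most 0.0966), and with the replicate letter as a block (adjusted p = 0.0501). The other 7 called subunits rose by 0.55 (Atp5d) to 0.76 (Atp5k). Each lost its call in at least 5 of the 6 fits, and Atp5e, Atp5j2 and Atp5l lost it with the block as well (adjusted p = 0.0627, 0.0681 and 0.0670).

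The 3 genes shared the supply of subunit c transcript in nearly fixed proportion. Their summed FPKM was 909.9, 747 and 740.2 in AT1 mutants and 418, 467 and 486 in AT1 controls. Over all 14 libraries Atp5g3 gave 44.4 to 51.2% of the sum, Atp5g2 36.7 to 44.4% and Atp5g1 11.2 to 14.3%.

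Complex II, succinate dehydrogenase, had 3 of its 4 members called. Sdhd, a membrane anchor, measured 103, 75.3 and 69.7 FPKM in mutants and 49.5, 48.1 and 46.7 FPKM in controls (log2 0.75 ± 0.17 SE; adjusted p = 0.0242; lost without mutant A, mutant B or control C, at most 0.0673). Sdhb, the iron-sulfur subunit, rose by 0.50 (adjusted p = 0.0420) and Sdhc, the other anchor, by 0.65 (adjusted p = 0.0266), the first with its call lost in all 6 fits with 1 library left out (at most 0.137) and the second in 5, all but the one without control C (at most 0.0997). Sdha, the flavoprotein that oxidises succinate, measured 73.3, 64.9 and 66.0 FPKM in mutants and 57.9, 52.8 and 59.9 FPKM in controls (0.26 ± 0.13; adjusted p = 0.197). Its groups did not overlap, but it did not pass the test.

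Complex III, which carries electrons from ubiquinol to cytochrome c, had 5 of 11 members called (median log2 0.52). Uqcrb, a small subunit near the quinone site, measured 321, 207 and 274 FPKM in mutants and 128, 132 and 164 FPKM in controls (0.90 ± 0.20 SE; adjusted p = 0.0230). Uqcr10, another small subunit, measured 248, 228 and 189 FPKM in mutants and 104, 131 and 123 FPKM in controls (0.89 ± 0.17; adjusted p = 0.0140). Their groups were well apart. Cyc1, cytochrome c1, measured 91.8, 91.7 and 74.3 FPKM in mutants and 56.7, 61.7 and 53.5 FPKM in controls (0.57 ± 0.14; adjusted p = 0.0324), and Uqcrc1, a core subunit, rose by 0.52 (adjusted p = 0.0389). Uqcrfs1, the Rieske iron-sulfur protein, measured 82.4, 61.9 and 64.6 FPKM in mutants and 52.3, 48.6 and 45.1 FPKM in controls (0.50 ± 0.15; adjusted p = 0.0595), and it passed with the replicate letter as a block (adjusted p = 0.0363), as did the core subunit Uqcrc2 (0.48; adjusted p = 0.0396, and 0.104 without the block). The other called member was Uqcc2, an assembly factor and the only one of 9 assembly factors that passed (0.57, adjusted p = 0.0475), but with the block it did not pass (0.0558) and the complex I assembly factors Ndufaf4 (0.58, adjusted p = 0.0349, and 0.0659 without it) and Ndufaf7 (0.49, adjusted p = 0.0388, and 0.0926 without it) did. All 5 calls were lost without mutant A, Uqcr10 without it alone (0.0570), Uqcrb also without mutant C (at most 0.0796), Cyc1 also without mutant B, control A or control C (at most 0.115) and Uqcrc1 and Uqcc2 in all 6 (at most 0.127 and 0.141).

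Complex I, the entry point for NADH, had 12 of 45 members called (median log2 0.41), all of them subunits. The largest change was that of Ndufab1, the mitochondrial acyl carrier protein, which is also a complex I subunit. It measured 66.0, 52.2 and 56.1 FPKM in mutants and 26.9, 28.8 and 32.5 FPKM in controls (0.96 ± 0.15 SE; adjusted p = 0.00799). Ndufa12, an accessory subunit, measured 122, 97.8 and 101 FPKM in mutants and 56.8, 60.0 and 58.9 FPKM in controls (0.85 ± 0.14; adjusted p = 0.00973). Ndufa4, counted by its name with complex I although the protein is now placed in complex IV, measured 443, 321 and 326 FPKM in mutants and 187, 203 and 200.4 FPKM in controls (0.87 ± 0.17; adjusted p = 0.0170). These 3 genes, with Atp5g1 and Atp5g3, were the 5 members called in all 6 fits with 1 library left out. Core subunits were found on both sides of the threshold. Ndufv2 (0.75, adjusted p = 0.0204; lost without mutant A, 0.0693) and Ndufs3 (0.65, adjusted p = 0.0172; lost without mutant A or mutant B, at most 0.0700) rose, and Ndufv1, Ndufs1 and Ndufs7 did not pass the test. Ndufv1, which binds NADH, differed by 0.32 ± 0.14 (adjusted p = 0.149), Ndufs1 by 0.34 ± 0.18 (adjusted p = 0.222) and Ndufs7 by 0.15 ± 0.17 (adjusted p = 0.573). The other 7 called subunits rose by 0.53 (Ndufa10) to 0.76 (Ndufb6), and each lost its call in at least 1 of the 6 fits.

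Complex IV, cytochrome c oxidase, had 5 of 14 tested members called (median log2 0.46). Cox5a measured 173, 116 and 139 FPKM in mutants and 82.6, 66.5 and 84.6 FPKM in controls (0.85 ± 0.19 SE; adjusted p = 0.0223), and Cox6b1 measured 410.1, 394 and 358 FPKM in mutants and 175, 245 and 245 FPKM in controls (0.82 ± 0.18; adjusted p = 0.0234). Both encode structural subunits, and in both the lowest mutant library was above the highest control library. The Cox5a call was lost without mutant A or mutant C (at most 0.0745), and the Cox6b1 call without any 1 of the 3 mutants (at most 0.0812). Cox4i1 and Cox6a1, the usual isoforms of subunits 4 and 6a, overlapped between groups. Cox4i1 measured 588, 638 and 446 FPKM in mutants and 372, 534 and 392 FPKM in controls (0.37 ± 0.22; adjusted p = 0.265). The other called subunits were Cox7c (0.80), lost without mutant A or control C, Cox7b (0.75), lost without mutant A, and Cox5b (0.69), lost without mutant A, mutant B, control A or control C (adjusted p of at most 0.0635, 0.0635 and 0.0916).

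**Figure D2:**
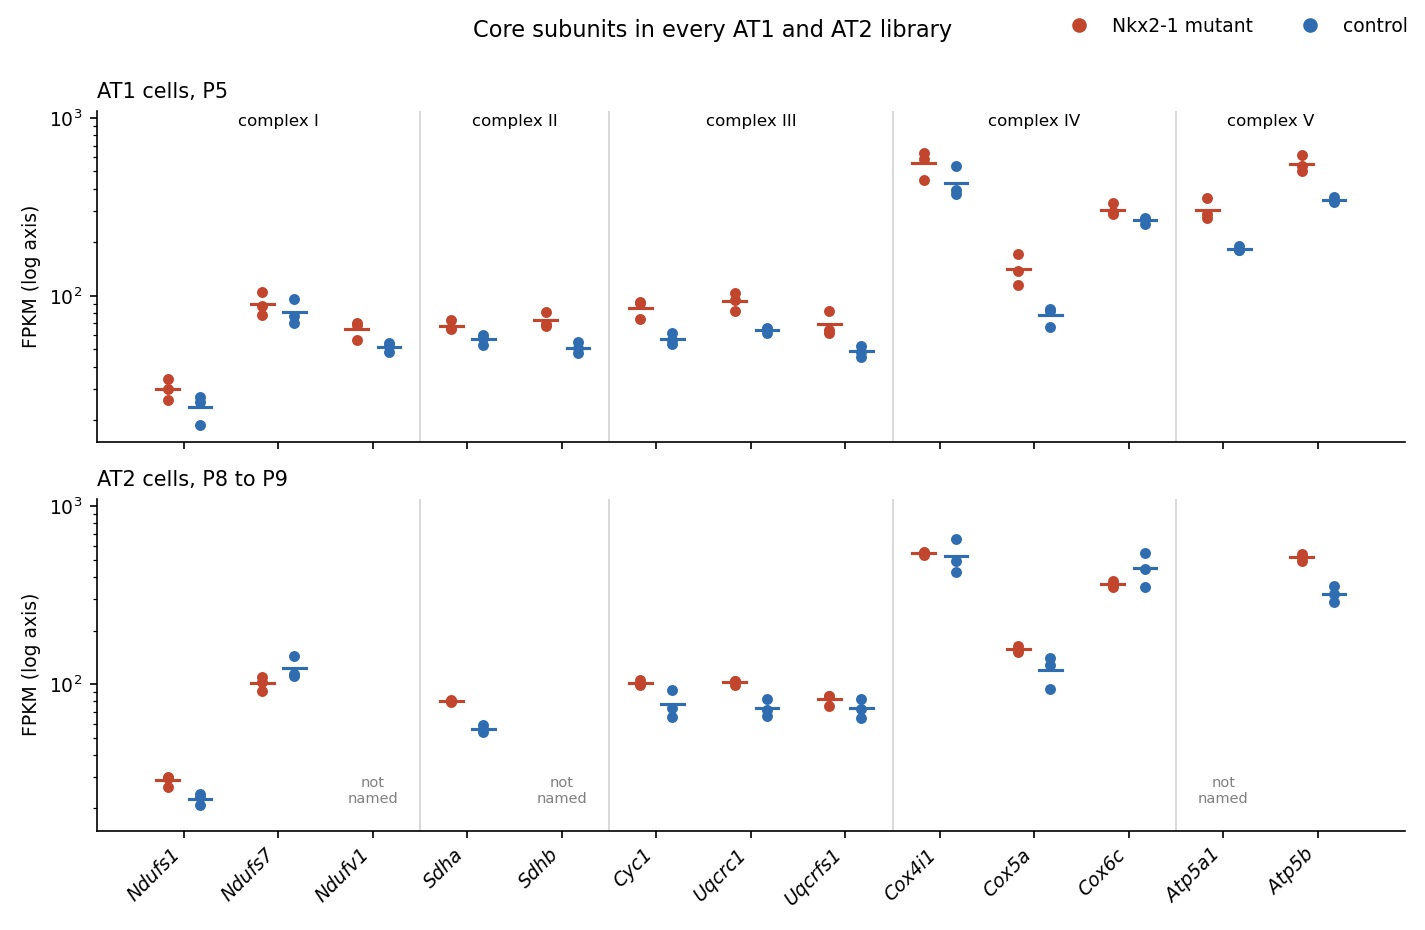
FPKM (log axis) of 13 core subunits, in AT1 cells (upper panel) and AT2 cells (lower panel); each point is 1 library, mutants left of controls, and bars are group means; 3 genes not named in the AT2 table have no points there. In AT1 cells Atp5b lies between 501 and 618 FPKM in mutants and between 336 and 359 FPKM in controls, while Cox4i1 and Ndufs7 overlap.

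The number of AT1 calls rested on mutant A more than on any other library. Against the mean of the controls the median member stood at log2 0.67 in mutant A, 0.44 in mutant B and 0.39 in mutant C, and mutant A was the highest mutant in 74 of 91 members. Mutant A was also the library with the least Nkx2-1, and it had the highest summed FPKM of the AT1 libraries (614523). The part of either was not tested. Without mutant A, 5 members were called, with 2.24% of all loci higher. Without any other library 13 to 23 members were called, with 5.06 to 9.17% of all loci higher. The median stayed between 0.43 and 0.55 in all 6 fits. When every library was scaled to the same summed FPKM, 9 members were called, all higher, with 5.43% of all loci higher, and the median member lay 0.49 above the median of all loci, against 0.50 with the deposited scaling.

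Promoters of some members hold the recognition letters of factors known to bind respiratory chain genes. RefSeq promoters of GRCm38.p6, running from 250 bases before to 50 bases after the start, were matched for 79 members in 85 windows, and were searched on both strands for 3 motifs. The NRF1 motif, GCGCA and GCGC with any 1 base between them, was in 24.7% of member windows and 4.6% of all 32851 windows. The ETS motif CCGGAAG, which GABP recognises, was in 21.2% of member windows and 8.86% of all, and the YY1 motif AAGATGGCG in 11.8% and 1.4%. The motifs were taken as letters, so a match is a description and not a binding site, and in all 40 of the 79 members held a match. The 250 bases before the start are printed for Sdha, with the most matches among these, for Sdhd and Cox6b1, and for the 3 subunit c genes, which encode the same mature protein; capitals mark NRF1 or ETS letters on either strand, and all 6 are on the minus strand, written 5′ to 3′. The start used for Atp5g1 lies 63 bases and that for Atp5g3 1138 bases inside the gene as RefSeq bounds it, so these windows precede an inner start, and the outer starts were not searched.
Sdha, chr13:74350241-74350490: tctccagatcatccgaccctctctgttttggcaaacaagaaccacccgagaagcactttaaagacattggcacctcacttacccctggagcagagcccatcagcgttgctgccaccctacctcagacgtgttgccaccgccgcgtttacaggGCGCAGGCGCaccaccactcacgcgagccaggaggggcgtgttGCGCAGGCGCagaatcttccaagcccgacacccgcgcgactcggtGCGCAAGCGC
Sdhd, chr9:50603850-50604099: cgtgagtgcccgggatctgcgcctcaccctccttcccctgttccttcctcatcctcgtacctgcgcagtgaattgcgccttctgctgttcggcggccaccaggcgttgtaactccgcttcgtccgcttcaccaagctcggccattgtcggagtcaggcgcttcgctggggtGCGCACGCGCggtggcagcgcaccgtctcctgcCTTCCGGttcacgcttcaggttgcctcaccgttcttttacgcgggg
Cox6b1, chr7:30626115-30626364: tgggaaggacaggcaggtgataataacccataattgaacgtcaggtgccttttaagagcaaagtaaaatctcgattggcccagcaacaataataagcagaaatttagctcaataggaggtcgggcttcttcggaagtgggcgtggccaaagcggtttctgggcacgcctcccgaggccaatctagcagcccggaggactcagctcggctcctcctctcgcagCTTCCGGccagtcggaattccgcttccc
Atp5g1, chr11:96075632-96075881: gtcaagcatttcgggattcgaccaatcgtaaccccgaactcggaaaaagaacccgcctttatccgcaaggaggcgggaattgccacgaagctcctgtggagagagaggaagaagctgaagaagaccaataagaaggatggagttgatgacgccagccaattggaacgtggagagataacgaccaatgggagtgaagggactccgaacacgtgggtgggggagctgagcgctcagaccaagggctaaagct
Atp5g2, chr15:102671048-102671297: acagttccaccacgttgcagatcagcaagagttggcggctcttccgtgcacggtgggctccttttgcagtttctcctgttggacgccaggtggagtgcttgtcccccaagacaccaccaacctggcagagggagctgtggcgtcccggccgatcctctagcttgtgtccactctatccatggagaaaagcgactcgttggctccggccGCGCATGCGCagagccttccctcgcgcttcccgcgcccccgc
Atp5g3, chr2:73911327-73911576: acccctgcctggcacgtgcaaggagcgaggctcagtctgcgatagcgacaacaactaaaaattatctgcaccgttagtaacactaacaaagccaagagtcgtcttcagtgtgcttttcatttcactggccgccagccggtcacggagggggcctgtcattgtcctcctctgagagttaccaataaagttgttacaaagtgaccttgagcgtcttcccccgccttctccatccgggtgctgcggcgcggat

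Sdha held the NRF1 letters 3 times, at bases 1 to 10, 46 to 55 and 89 to 98 before the start. Sdhd held them once, with an ETS match nearer the start, Cox6b1 held the ETS letters alone, and Atp5g2 held the NRF1 letters once, while the windows before the inner starts of Atp5g1 and Atp5g3 held none of the 3 motifs. In AT1 cells 10 of 20 members with an NRF1 match rose (median log2 0.58) and 24 of 56 without it (median 0.50), against 11.6% of all loci. In AT2 cells 4 of 17 members with the match rose and 1 fell (median 0.25). Of 42 without it 5 rose and 2 fell (median -0.11), against 32.4% and 22.3% of all loci. Members with and without a match had AT2 medians of 0.06 and 0.05 for ETS and 0.05 and 0.06 for YY1. The part of the motifs in the changes was not tested. The NRF1 gene itself, Nrf1, measured 14.3, 13.5 and 16.2 FPKM in AT2 mutants and 8.18, 9.73 and 9.90 FPKM in AT2 controls (0.61 ± 0.11; adjusted p = 0.00263), and in AT1 cells it did not pass the test (0.13 ± 0.15; adjusted p = 0.587).

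In AT2 cells the members split, with some of each direction and a middle near 0. The scaling is that of the deposited values, with nothing added, and by it 11 of 73 tested members rose and 6 fell (1 of them, Cox6a2, tested only because of its level in controls), against 32.4% and 22.3% of all 11610 loci tested. The median log2 change of the members was 0.06, against 0.09 over all loci, and 15 members lay higher in every mutant and 13 lower in every mutant, against 38.2% and 26.3% of all loci. With this scaling both shares of called members were below those of the whole table. Summed member FPKM was 11381, 12019 and 11776 in mutants and 11518, 14165 and 9954 in controls, which overlapped. The 3 members under the filter were Cox7b2, Cox8b and Cox8c.

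The choice of scaling changed the split of AT2 calls. The deposited AT2 values had median-ratio size factors between 0.992 and 1.01, so that scaling to the median ratio changed little, with 10 members higher and 6 lower. Scaled to equal summed FPKM, 49 members were higher and 2 lower, against 55.2% and 7.98% of all loci, and their median was 0.62, with all loci at 0.61. Scaled to equal sums without mitochondrial and small RNA loci, 38 were higher and 4 lower, against 46.6% and 12.7% of all loci (median 0.35, all loci 0.35), so that under these 2 scalings the share of members higher was above that of all loci. Scaled to the 75th percentile 6 were higher and 19 lower, against 25.7% and 27.7% of all loci (median -0.07, all loci -0.02). Relative to the median locus the members lay at -0.03 with the deposited scaling and between -0.04 and 0.01 under the other 4.

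The summed FPKM that the equal-totals scaling divides by was in good part mitochondrial. Transcripts encoded by mitochondrial DNA, listed in the AT2 table as 10 loci under their capitalised names, took 12.8, 11.5 and 8.85% of the summed FPKM in AT2 mutants A, B and C and 33.7, 27.7 and 14.0% in AT2 controls A, B and C. They encode subunits of complexes I, III, IV and V that sit in the same complexes as the members. All 10 were lower in mutants, with a median log2 change of -1.76, and 6 passed the test, namely ND2, ND3, ND4L, ND5, ND6 and CYTB. ND5 measured 1584, 1442 and 1065 FPKM in mutants and 6597, 6525 and 2550 FPKM in controls (log2 -1.83 ± 0.43 SE; adjusted p = 0.00895). Control C was the control closest to the mutants, and without it all 10 were called, while 2 to 4 were called without any other 1 library and without a filter on low values the lowest adjusted p was 0.0710, that of ND5. Under each of the other 4 scalings the 10 loci stayed lower, with medians of -1.17 to -1.88.

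**Figure D3:**
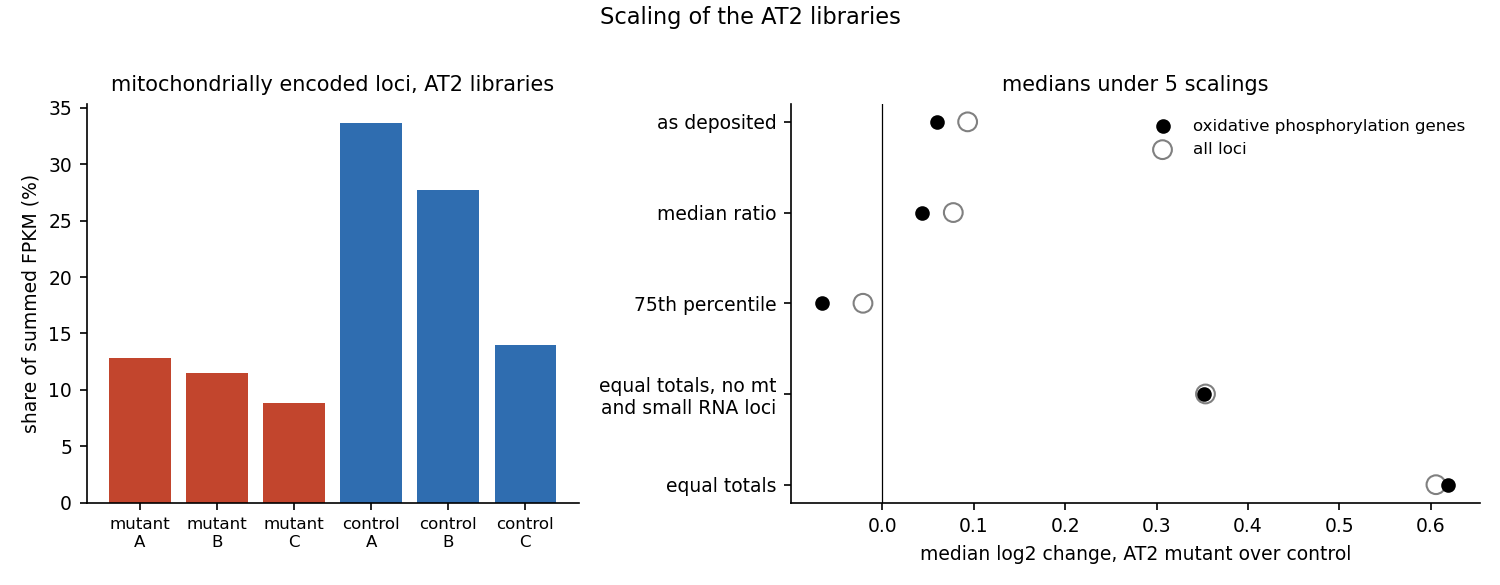
Left, share of summed FPKM (percent) taken by the 10 mitochondrially encoded loci in each AT2 library, mutants left of controls; right, median log2 change of the members and of all loci under 5 scalings. Mutants lie between 8.85 and 12.8% and controls between 14.0 and 33.7%, and the member median follows the median of all loci, at 0.62 and 0.61 with equal totals and 0.06 and 0.09 as deposited.

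Among AT2 genes that rose, Atp5b, Sdha, Ndufa9 and Uqcrc1 had the largest changes. Atp5b, the beta subunit, measured 490.1, 519 and 539.7 FPKM in mutants and 323, 354 and 289 FPKM in controls (log2 0.68 ± 0.13 SE; adjusted p = 0.00382). Sdha measured 79.5, 81.7 and 80.7 FPKM in mutants and 58.7, 56.1 and 53.6 FPKM in controls (0.52 ± 0.08; adjusted p = 0.00141). Ndufa9, a complex I subunit near the quinone site, measured 69.7, 78.9 and 81.4 FPKM in mutants and 50.4, 57.3 and 52.5 FPKM in controls (0.51 ± 0.10; adjusted p = 0.00364), and Uqcrc1 measured 98.2, 104 and 104 FPKM in mutants and 71.5, 82.6 and 66.5 FPKM in controls (0.47 ± 0.10; adjusted p = 0.00690). In these 4 genes every mutant was above every control, and the calls held in all 6 fits with 1 library left out and under all 5 scalings; with the P8 libraries alone Uqcrc1 did not pass (0.39).

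Other AT2 members rose by less and were less stable. Ndufaf2, an assembly factor of complex I, measured 32.9, 28.0 and 27.3 FPKM in mutants and 19.0, 24.4 and 20.4 FPKM in controls (log2 0.45 ± 0.12 SE; adjusted p = 0.0151; lost without mutant A, 0.0572). Sdhd rose by 0.43 (adjusted p = 0.0188) and Ndufs1, a core iron-sulfur subunit, by 0.33 (adjusted p = 0.0192), both lost without mutant B or mutant C (at most 0.0680 and 0.0721). Atp5g1 rose by 0.42 (adjusted p = 0.0315) and Cyc1 by 0.40 (adjusted p = 0.0368), and both calls held only without control B among the 6 left-out libraries (at most 0.0940 and 0.109). The assembly factors Ndufaf5 (0.30, adjusted p = 0.0414) and Uqcc1 (0.28, adjusted p = 0.0421) were lost in 5 of 6 such fits, and held without mutant A for Ndufaf5 and without control B for Uqcc1.

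Of the 6 called lower in AT2 cells, 3 were tissue-restricted isoforms, described with their partners below, and 3 were complex I subunits. Ndufa6, an accessory subunit of the LYR family, measured 139.6, 154 and 141 FPKM in mutants and 256, 315 and 214 FPKM in controls (log2 -0.83 ± 0.15 SE; adjusted p = 0.00310), with no overlap, and kept its call in all 6 fits with 1 library left out but not with equal totals (-0.25). Ndufv3, an accessory subunit beside the NADH site, measured 91.0, 91.9 and 75.8 FPKM in mutants and 119, 132 and 99.2 FPKM in controls (-0.43 ± 0.14; adjusted p = 0.0304), but lay at 0.15 with equal totals. Ndufb5 fell by 0.39 on the log2 scale (adjusted p = 0.0380). Neither Ndufv3 nor Ndufb5 was called with equal totals, or with equal totals without mitochondrial and small RNA loci. The calls of Ndufv3 and Ndufb5 held only without control C among the left-out libraries (at most 0.111 and 0.113).

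Controls B and C lay at the ends of the AT2 controls. Against the control mean the median member stood at 0.24 in control B, which was the highest control in 67 of 73 members, and at -0.22 in control C, the P9 control, which was the lowest in 62. Without control B 24 members rose and 3 fell, against 34.2% and 19.7% of all loci, and without control C 7 rose and 14 fell, against 32.1% and 20.2%, with medians of 0.19 and -0.05. The P8 libraries alone gave 3 higher and 7 lower, against 24.1% and 14.9% of all loci.

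The AT2 change minus the AT1 change was then tested for each member, to see where the cell types differed. Of 72 members tested with limma, 10 had a more negative change in AT2 cells and none a more positive one. The shares of all 10336 loci were 4.28% and 4.02%. Of the 10, Cox6a2 was tested only because of its level in AT2 controls, so its call is no support. At an unadjusted limma p under 0.05 the members numbered 36 and 0, and the share of all loci was not counted there. Of the 72 differences 5 lay above 0, with a median of -0.48, against 0.07 over all loci. The comparison sets 2 separately normalised tables side by side, and the groups also differ in age and in the gene joined to Nkx2-1 in the labels, which cannot be told apart from cell type. It followed the scaling, which was changed in both the AT1 and the AT2 values. With equal totals 5 members were more positive and 1 more negative, against 34.1% and 1.61% of all loci (median 0.23, all loci at 0.67). With the 75th percentile 24 were more negative, against 6.31%. With the replicate block Uqcrb was gained (-1.02; adjusted p = 0.0333, and 0.0516 without it) and Cox5b lost (0.0677).

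Apart from Cox6a2, described with the isoforms, Cox7b, Ndufc1, Uqcrh and Ndufa6 were among the called differences. Cox7b, a small complex IV subunit encoded on the X chromosome, measured 94.4, 70.0 and 75.7 FPKM in AT1 mutants and 43.8, 46.9 and 49.9 FPKM in AT1 controls, and 80.2, 84.4 and 75.6 FPKM in AT2 mutants and 87.6, 108 and 80.8 FPKM in AT2 controls. Its difference of -0.94 ± 0.19 (SE; adjusted p = 0.0134) was the one call that held in all 12 fits with 1 library left out. Ndufc1, a small complex I subunit, measured 121, 87.9 and 99.9 FPKM in AT1 mutants and 61.7, 56.7 and 64.1 FPKM in AT1 controls, and 103, 116 and 104 FPKM in AT2 mutants and 115, 158 and 108 FPKM in AT2 controls (difference -0.96 ± 0.22; adjusted p = 0.0226; lost without AT2 mutant A or C, at most 0.0638). Uqcrh, the hinge protein of complex III, rose in neither cell type by the test, at 239, 174 and 204 FPKM in AT1 mutants and 136, 137 and 170.2 FPKM in AT1 controls, and 236, 255 and 220.3 FPKM in AT2 mutants and 316, 395 and 254 FPKM in AT2 controls (difference -0.89 ± 0.25; adjusted p = 0.0483; held in 3 of 12 such fits, those without AT1 mutant B, AT1 control C or AT2 control C, and otherwise at most 0.116). Ndufa6, which fell in AT2 cells, had 105, 96.1 and 80.4 FPKM in AT1 mutants and 73.1, 94.8 and 78.4 FPKM in AT1 controls (difference -1.02 ± 0.22; adjusted p = 0.0180; lost without AT2 mutant A or C, at most 0.0526).

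Differences were small, with the deposited scaling, for Atp5b, Ndufs1 and Uqcrc1. Atp5b differed by 0.02 ± 0.18 (SE), Ndufs1 by -0.01 ± 0.21 and Uqcrc1 by -0.05 ± 0.16 with the deposited scaling, and with equal totals these differences were 0.74, 0.69 and 0.67, where all loci stood at 0.67. Subunit c differed by -0.46 for Atp5g1, -0.40 for Atp5g2 and -0.50 for Atp5g3, none of which passed the test, and with equal totals these were 0.25, 0.32 and 0.22. A difference that missed the threshold does not show that the changes were alike.

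**Figure D4:**
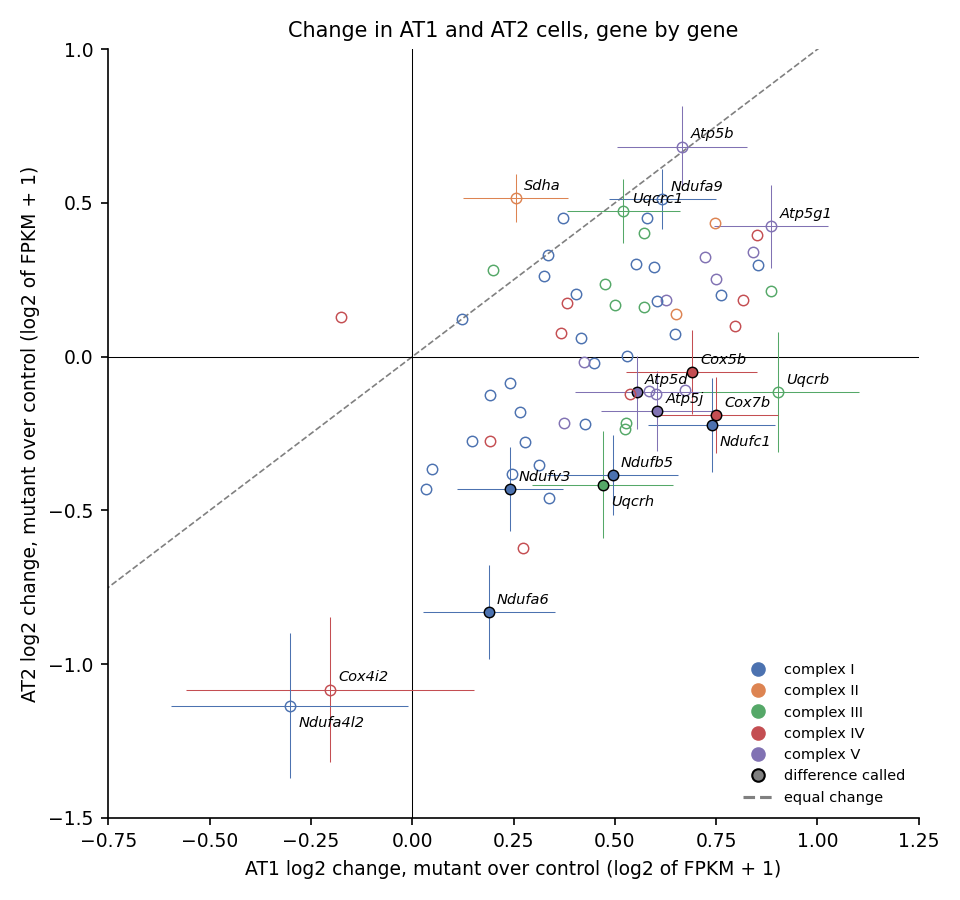
Log2 change (mutant minus control) of each member in AT1 cells (horizontal axis) and AT2 cells (vertical axis), with standard errors for the labelled genes; filled points passed the test of the difference and the dashed line marks equal change; Cox6a2 is not drawn, as it was not tested in AT1 cells. Cox7b lies at 0.75 in AT1 cells and -0.19 in AT2 cells, and Atp5b lies on the line at 0.67 and 0.68.

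Whole mutant lung at P14 had more of most members than control lung. With 1 library in each group there was no test, and members past 1.5-fold on the log2(FPKM + 1) scale are counted among those that reached 5 FPKM in at least 1 of the 2 libraries. Of 90 such members 51 were higher and 3 lower, against 24.4% and 19.9% of all loci, and the median log2 ratio was 0.68, against 0.09. All 51 but 2 were subunits of the usual kind, of which 49 of 76 were past 1.5-fold. Of 7 assembly factors none was by that scale, while Ndufaf1 and Ndufaf7 had plain FPKM ratios of 1.54 and 1.52, as had Uqcrc2 and Atp5sl of 1.51. Summed member FPKM was 17399.6 in mutant lung and 10567 in control lung. Scaled without small RNA loci, which took 2.46% of the mutant and 32.5% of the control library, 14 members were higher, against 14.6% of all loci, a share near that of the members, with a median that lay 0.59 above that of all loci, against 0.58 as deposited.

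The largest ratios in lung were those of Sdhd, Cox6a2, Cox5a, Uqcrfs1 and Atp5g3. Sdhd measured 179 FPKM in mutant lung and 51.4 FPKM in control lung, a log2 ratio of 1.78. Cox5a measured 238 FPKM in mutant lung and 94.1 FPKM in control lung (1.33), Uqcrfs1 122 FPKM in mutant lung and 55.6 FPKM in control lung (1.12), and Atp5g3 511 FPKM in mutant lung and 238 FPKM in control lung (1.10). Core subunits ranged from 0.26 for Sdha, at 76.2 FPKM in mutant lung and 63.5 FPKM in control lung, to 1.33 for Cox5a. Ndufa4 was level, at 305 FPKM in mutant lung and 304 FPKM in control lung. The lowest ratios were those of Cox4i2, Ndufa4l2, Cox6b2, Ndufaf4 and Uqcc1, the last at 8.07 FPKM in mutant lung and 8.28 FPKM in control lung. In bulk tissue, a change in the number of cells of a type cannot be told apart from a change in RNA per cell. Pan-epithelial markers (7 of 7) were past 1.5-fold higher in mutant lung, and AT1 markers (10 of 10), AT2 markers (10 of 10), endothelial markers (8 of 8) and mesenchymal markers (5 of 7) lower, at sums of 708 FPKM in mutant lung and 1951 FPKM in control lung for the endothelial list, and their part in the members' ratios was not tested.

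Isoforms with a restricted tissue range are set here beside the subunits they replace, without a test of isoform against partner. Cox4i2 is the form of subunit 4 found in lung and in the vascular wall, where it is tied to oxygen sensing, and Ndufa4l2 is a relative of Ndufa4 that hypoxia induces in many cells. Cox6a2, Cox7a1 and Cox8b are the heart and skeletal muscle forms, and Cox6b2 is the testis form. Of the 4 tested in AT1 cells none was called by limma, with 0 at an unadjusted p under 0.05 as well. In AT2 cells 3 of 5 were called lower, where 22.3% of all loci fell. Of these 3, Cox6a2 was tested only because of its level in controls, so its call is no support and the share is not comparable.

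Cox4i2 measured 3.95, 5.84 and 4.21 FPKM in AT2 mutants and 15.5, 7.86 and 10.4 FPKM in AT2 controls (log2 -1.08 ± 0.23 SE; adjusted p = 0.00650), and Ndufa4l2 measured 1.35, 1.97 and 1.04 FPKM in AT2 mutants and 5.72, 2.84 and 4.85 FPKM in AT2 controls (-1.14 ± 0.24; adjusted p = 0.00533). Both were lower in every mutant than in any control and kept their calls in all 6 fits with 1 library left out, with control B nearest to the mutants; the call of Cox4i2 was lost with equal totals (-0.58), and both were lost with the P8 libraries alone (-1.06 for Cox4i2 and -0.94 for Ndufa4l2). Cox4i2 made up 0.734, 1.05 and 0.759% of the summed Cox4i1 and Cox4i2 FPKM in AT2 mutants and 3.08, 1.18 and 2.38% in AT2 controls. In AT1 cells Cox4i2 measured 8.59, 10.8 and 13.1 FPKM in mutants and 6.46, 19.6 and 14.8 FPKM in controls, and Ndufa4l2 measured 5.97, 6.56 and 8.24 FPKM in mutants and 5.18, 13.1 and 9.49 FPKM in controls, with the groups overlapping in both (adjusted p = 0.712 and 0.493). In lung Cox4i2 measured 21.4 FPKM in the mutant and 108 FPKM in the control (log2 ratio -2.29), which was 2.31% and 19.5% of the pair, and Ndufa4l2 measured 29.5 FPKM in the mutant and 73.5 FPKM in the control (-1.29). Markers of pericytes and smooth muscle, cells of the vessel wall, summed to 9.79, 11.98 and 7.55 FPKM in AT2 mutants and 17.2, 8.49 and 10.6 FPKM in AT2 controls, and to 116.5 FPKM in mutant lung and 182.5 FPKM in control lung, where 4 of 7 were past 1.5-fold lower. Endothelial markers (8 of 8, median log2 -1.37), mesenchymal markers (5 of 6, -1.41) and leukocyte markers (4 of 5, -1.48) fell in AT2 cells as well. The mesenchymal markers summed to 105, 132 and 118 FPKM in AT2 mutants and 431, 209 and 342 FPKM in AT2 controls, and the leukocyte markers to 6.72 to 17.9 FPKM in AT2 mutants and 27.3 to 73.2 FPKM in AT2 controls. The part of these cell types in the isoforms' changes was not tested.

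Cox6a2 measured 0.0762, 0 and 0.527 FPKM in AT2 mutants and 5.91, 11.9 and 3.60 FPKM in AT2 controls, a log2 change of -2.65 ± 0.36 SE. No mutant reached 1 FPKM and every control did, so it entered the test through the controls alone and its call is no support. Leaving out a control left it with 2 libraries at 1 FPKM, so that it was not tested. It gave 0.0135, 0 and 0.0802% of the summed Cox6a1 and Cox6a2 FPKM in AT2 mutants and 1.21, 1.80 and 0.775% in AT2 controls, while Cox6a1 measured 563, 562 and 657 FPKM in mutants and 483, 650.1 and 461 FPKM in controls (0.17; adjusted p = 0.433). In lung it went the other way, at 11.9 FPKM in the mutant and 3.76 FPKM in the control (1.44). Muscle markers summed to 3.08, 1.86 and 1.37 FPKM in AT2 mutants and 3.99, 2.27 and 0.978 FPKM in AT2 controls, none of them high enough to be tested, and to 137.4 FPKM in mutant lung and 65.8 FPKM in control lung, where 5 of 6 were past 1.5-fold higher.

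Cox7a1 measured 4.10, 5.64 and 3.79 FPKM in AT2 mutants and 6.86, 11.7 and 4.92 FPKM in AT2 controls (log2 -0.62; adjusted p = 0.0894), and its partner Cox7a2 measured 124, 135 and 118 FPKM in AT2 mutants and 137, 158 and 118 FPKM in AT2 controls (-0.12, against 0.46 with equal totals; adjusted p = 0.454). Cox6b2 measured 17.1, 17.8 and 16.1 FPKM in AT2 mutants and 12.7, 20.5 and 14.2 FPKM in AT2 controls, with overlap, and 18.3 FPKM in mutant lung and 32.8 FPKM in control lung. Cox8b was listed at 0 in 5 of the 6 AT2 libraries.

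**Figure D5:**
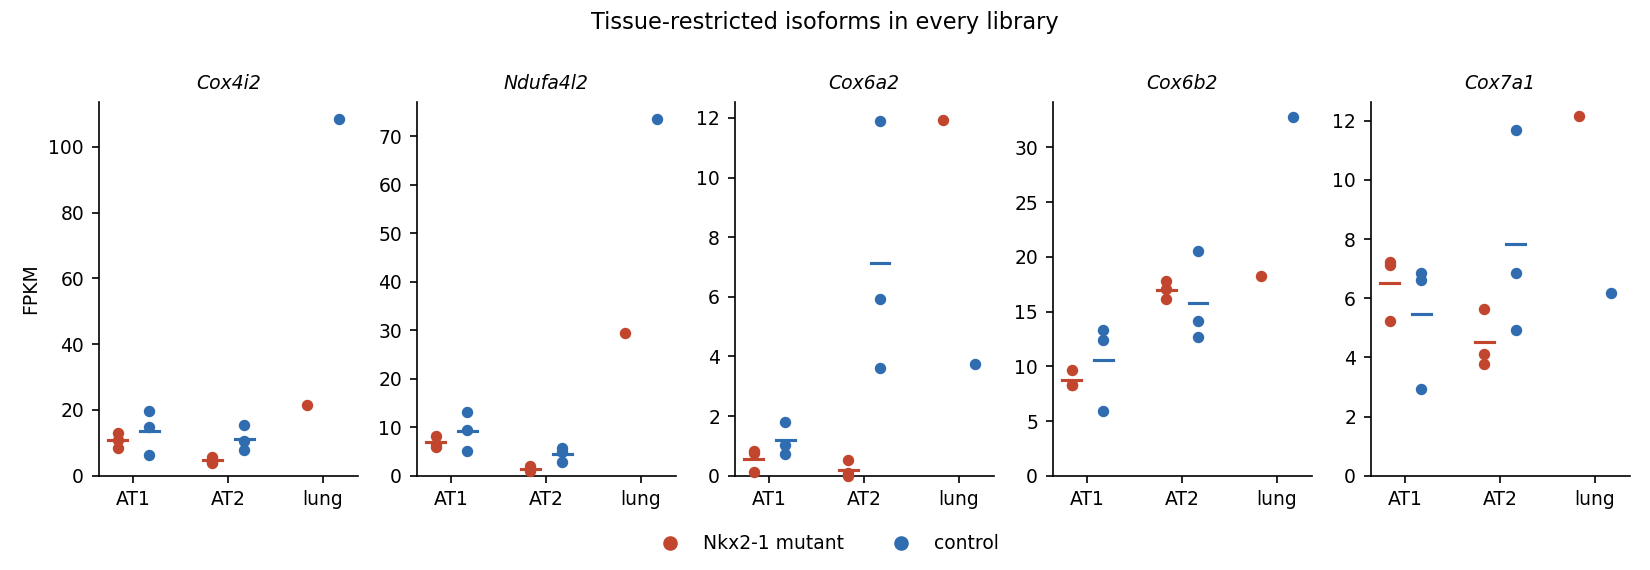
FPKM of 5 tissue-restricted isoforms in every library of AT1 cells, AT2 cells and whole lung; each point is 1 library, mutants left of controls. In AT2 cells Cox6a2, Cox4i2 and Ndufa4l2 are lower in each mutant than in each control, and in AT1 cells mutants and controls overlap for Cox4i2 and Ndufa4l2.

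Other nuclear genes of the mitochondrion were read by lists fixed beside the members, with counts and medians and no test of a list. Of all loci 11.6% rose in AT1 cells, and 32.4% rose and 22.3% fell in AT2 cells. In AT1 cells genes of the mitochondrial ribosome rose in 25 of 74 (median log2 0.50), those of protein import in 7 of 17 (0.59), those of the tricarboxylic acid cycle in 5 of 14 (0.41) and those of the cytosolic ribosome in 10 of 81 (0.50). The cytosolic ribosome thus had the same median as the oxidative phosphorylation genes, with a share of calls near that of all loci. In AT2 cells the mitochondrial ribosome rose in 20 of 53 and fell in 2 (median 0.24), and import rose in 11 of 17 (0.41). Genes of mitochondrial structure rose there in 12 of 17 (0.45), and the cytosolic ribosome rose in 2 of 73 and fell in 1. Genes of complex IV assembly rose in 3 of 20 in AT1 cells, and in AT2 cells 8 of 21 rose and 2 fell. Of the electron carriers and ubiquinone synthesis genes 3 of 10 rose in AT1 cells, and in AT2 cells 4 of 8 rose and 1 fell. Of the fatty acid oxidation genes 3 of 14 rose in AT1 cells, and in AT2 cells 3 of 12 rose and 4 fell. In AT2 cells the shares of mitochondrial ribosome and complex IV assembly genes that rose lay near that of all loci. The AT2 counts are those of the deposited scaling. In lung 75 of 81 cytosolic ribosome genes were past 1.5-fold higher (median log2 ratio 0.94), as were 12 of 14 fatty acid oxidation genes (0.82). Counts there were 36 of 73 for the mitochondrial ribosome (0.58) and 4 of 18 for complex IV assembly (0.35), against 24.4% of all loci. The lung rise was thus not particular to the members.

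Idh2, the NADP-linked isocitrate dehydrogenase, rose in both cell types. It measured 149, 131 and 121 FPKM in AT1 mutants and 70.9, 69.7 and 73.3 FPKM in AT1 controls (log2 0.89 ± 0.14 SE; adjusted p = 0.00805), and 229.6, 232 and 223 FPKM in AT2 mutants and 148, 177 and 144 FPKM in AT2 controls (0.55 ± 0.11; adjusted p = 0.00513). Tfam, the factor that packages and transcribes mitochondrial DNA, measured 20.5, 20.5 and 21.0 FPKM in AT2 mutants and 12.6, 12.7 and 11.2 FPKM in AT2 controls (0.72 ± 0.08; adjusted p = 0.000354), in the libraries in which the mitochondrially encoded transcripts were lower. In AT1 cells Tfam stood at 9.69, 8.05 and 8.29 FPKM in mutants and 5.51, 5.56 and 5.74 FPKM in controls (0.55; adjusted p = 0.0369, lost in all 6 fits with 1 library left out, at most 0.142). Epas1, a hypoxia-inducible factor subunit, measured 13.2, 18.9 and 14.6 FPKM in AT2 mutants and 59.9, 45.1 and 64.3 FPKM in AT2 controls (-1.79 ± 0.17; adjusted p = 0.000171), and Epas1 is also transcribed in endothelial cells. In AT1 cells Epas1 was lower as well (log2 -1.06 ± 0.20 SE, limma adjusted p = 0.0145), a call lost only without mutant A (0.0637). The 8 endothelial markers all fell in AT2 cells, at sums of 34.9, 67.4 and 39.1 FPKM in mutants and 151, 101 and 161 FPKM in controls, and their part was not tested. Mpc1 and Mpc2, which form the mitochondrial pyruvate carrier, fell in AT2 cells. Mpc1 measured 48.5, 61.1 and 47.4 FPKM in AT2 mutants and 97.5, 97.4 and 68.2 FPKM in AT2 controls (-0.72; adjusted p = 0.00883), and Mpc2 54.9, 57.1 and 58.3 FPKM in AT2 mutants and 93.1, 114 and 72.6 FPKM in AT2 controls (-0.68; adjusted p = 0.00858).

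Transcripts of the members are short, and other short transcripts moved as well. By the longest protein-coding GENCODE transcript of each gene, the median length was 913 nucleotides for members and 2681 for all such genes. The transcripts expressed here may be shorter. Among loci under 800 nucleotides at 50 FPKM or more in AT1 cells, the median log2 change was 0.54 in 33 members and 0.48 in 90 other loci. Among those of 1500 nucleotides or more at that level it was 0.52 in 16 members and 0.07 in 958 other loci. In AT2 cells the short class stood at -0.11 in 29 members and -0.08 in 96 other loci. The long class stood there at 0.21 in 12 members and 0.19 in 795 other loci. Over the tested members, the Spearman correlation of length with log2 change was 0.37 in AT2 cells and -0.05 in AT1 cells. The part of transcript length in the members' changes was not tested. Many members also have processed pseudogenes, and how shared reads were divided is not stated.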

How the data were processed

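Per the labels' protocols, poly(A)-selected RNA was sequenced as paired reads of 76 nucleotides. The submitters' processing notes name the mm10 build, TopHat2 (version 2.0.14), Bowtie2 (version 2.2.3) and Cufflinks (version 2.2.1), with Cuffdiff for AT1 cells and lung and Cuffnorm for AT2 cells, and give them no order. The authors deposited FPKM values, 1 column per library; depth in reads is unknown. The annotation and any use of strand are not stated. For AT2 cells 32 rows without values were left out. The 1441 AT2 loci without a name stayed among the loci filtered and tested in AT2 cells. They were left out only of the AT2 change minus the AT1 change, which was matched by name.

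Values were used as log2(FPKM + 1), which understates changes of low genes. Loci with at least 3 libraries at 1 FPKM were tested with limma 3.58.1 (R 4.3.3; empirical Bayes with trend, two-sided, Benjamini-Hochberg over all loci, threshold 0.05), AT1 and AT2 separately, without a replicate block; the AT2 change minus the AT1 change was an interaction over 12 libraries. In AT1 cells same-letter mutant and control libraries deviated together from their group means (r = 0.24, 0.36 and 0.48). The main AT1 counts, standard errors and p-values ignore this pairing, and a fit with the letter as a block was an alternative. Blocked values stand where they change the call of a member in AT1 cells or in the difference. In lung, no test was made. Members and lists were chosen with earlier results of these data known. Named are Nkx2-1, the 5 largest called changes in each direction per comparison, a fixed set of core subunits (1 is not reported here), the isoform pairs and the subunit c genes, and up to 2 called genes per other list; further members named were chosen after their values were seen. The steps were checked on simulated data. All 96 names were matched to RefSeq genes, 3 by an older symbol. Alternatives were other pseudocounts, filters, scalings, a block, a robust prior, postnatal day and leaving out each library. Plots were drawn with matplotlib 3.10.9 in Python 3.11.15, and tables handled with NumPy 2.4.6 and pandas 2.3.3.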

Additional observations from a re-analysis of the deposited data

Results flagged for a closer look

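For 10 members the change in AT2 cells differed from that in AT1 cells by the interaction test (AT2 change minus AT1 change, log2, deposited scaling). Cox6a2 differed by -2.17, but it was high only in AT2 controls and entered the test through them, so its call is no support. It was not tested in AT1 cells alone, where it measured 0.123, 0.752 and 0.847 FPKM in mutants and 1.04, 0.728 and 1.81 FPKM in controls. Complex I gave Ndufa6 at -1.02, Ndufc1 at -0.96, Ndufb5 at -0.88 and Ndufv3 at -0.67. Complex IV gave Cox7b at -0.94 and Cox5b at -0.74 (limma adjusted p = 0.0439, and 0.0677 with the replicate block; lost in 9 of 12 fits with 1 library left out), complex III gave Uqcrh at -0.89, and complex V gave Atp5j at -0.78 and Atp5d at -0.67. Cox5b measured 285, 257 and 225 FPKM in AT1 mutants and 139.6, 177 and 159 FPKM in AT1 controls, and 262, 243 and 281 FPKM in AT2 mutants and 252, 317 and 249 FPKM in AT2 controls. Atp5j, the coupling factor of the ATP synthase, measured 165, 137 and 141 FPKM in AT1 mutants and 97.3, 92.3 and 99.8 FPKM in AT1 controls, and 223, 225 and 235 FPKM in AT2 mutants and 232, 302 and 243 FPKM in AT2 controls. Without AT2 mutant A, 1 of the 10 was called.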

How the results depend on the processing

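No AT1 member fell under any alternative run. Under equal totals 9 AT1 members rose, against 5.43% of all loci, and 5 to 23 rose with 1 library left out, against 2.24 to 9.17%. For AT2 cells, higher members numbered 49 with equal totals, 38 with equal totals without mitochondrial and small RNA loci and 6 with the 75th percentile. The shares of all loci were 55.2%, 46.6% and 25.7%. They numbered 7 without a filter, against 15.1% of all loci, and 3 with the P8 libraries alone, against 24.1%. With 1 library left out they numbered 5 to 24, against 25.9 to 34.2%. Lower members numbered 2 with equal totals, 19 with the 75th percentile and 3 to 14 with 1 library left out. The shares of all loci were 7.98%, 27.7% and 17.6 to 20.2%. The AT2 median was 0.62, 0.35 and -0.066 under those 3 scalings, 0.0026 without a filter, -0.080 with P8 alone and -0.0545 to 0.19 with 1 library left out. For the AT2 change minus the AT1 change, 5 members were more positive with equal totals and 1 without mitochondrial and small RNA loci. The shares of all loci were 34.1% and 22.4%. Under those 3 scalings 1, 6 and 24 were more negative, against 1.61%, 2.90% and 6.31%. With 1 library left out 1 to 21 were more negative, against 2.18 to 4.75%. The median was 0.23 and -0.10 under the first 2 of these scalings. Lung medians were 0.87, 0.34 and 0.55, and 14 members were higher without mitochondrial and small RNA loci. With equal totals 68 of 73 AT2 members lay above 0, against 38 as deposited, and 55 of 72 differences, against 5. Among those that changed sign were Ndufv3 (0.15) and Cox7a2 (0.46) in AT2 cells and Uqcrc1 (0.67) in the difference. These scalings shift all loci; the cause was otherwise not tested.

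With the replicate letter as a block, 37 AT1 members were called, 33 of them among the 38. The block raised the shares of all AT1 loci to 15.1% higher and 10.8% lower, from 11.6% and 6.22%. For AT2 cells, whose letters did not pair the libraries (r = 0.11, -0.12 and 0.13), 11 rose and 9 fell, against 31.7% and 22.1% of all loci. With the block 10 differences were called, 9 of them shared. Of all loci 6.5% then differed in each direction, against 4.02% more positive and 4.28% more negative without it. A stricter filter was not run for the lung, where it equals the one used. Depth in reads is unknown, so precision rests on the spread between 3 libraries.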
